A study of Drosophila melanogaster with 40 samples.

Results

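The genes described here are the X-linked genes of Drosophila melanogaster that the deposited gene table lists by a CG number. They were taken as every row on chromosome X whose name is CG followed by digits only, without CG14205, CG14219, CG32786 and CG14207, which the rule leaves out by name. This gave 1200 of the 17490 genes in the table, and of 2647 genes on the X. The rule uses the chromosome and the name only. The 1505 CG-numbered genes of the left arm of chromosome 3 (3L), chosen in the same way, served as the autosomal reference. Of the 1200 members, 1187 were matched to a Drosophila gene annotation by identifier, 1183 of these as protein coding, and 196 carry another symbol there. The names below are those of the table, with the annotation's symbol where there is one.

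The 40 libraries came from a Drosophila model of feline hypertrophic cardiomyopathy, a thickening of the heart muscle. The feline gene MYBPC3, which codes for cardiac myosin binding protein C, was expressed under TinCΔ4-Gal4, a driver active in the heart, while RNA was taken from whole bodies, so that the transgene acts in a small part of the tissue sampled. The strain of the labels, with y,w/P[int, y+] on the X, Chr2/Chr2 as its second chromosome and P[attP2, y+] on the third, is by the study's methods the one in which the transgenes were made. The flies sampled came from crosses to the driver line yw; +/+; TinCΔ4-Gal4/TinCΔ4-Gal4. By those methods all have Chr2 over a wild-type second chromosome, and the insert or the empty attP2 site over TinCΔ4-Gal4 on the third. The methods write the X as w1118 over y, w, which can hold only for females, as males have a single X. Which X the males carry is not stated. The 4 genotypes are the feline wild-type allele (WT), the alleles A31P and R820W, and attP2, which has the landing site and the driver but no insert. Each genotype was sampled in 5 sets, larvae (the sex of which is not given) and, for each sex, nonexercised and exercised adults, the adults at 1 week of age and the exercised flies after 1 h of exercise, with 2 replicates of 10 pooled animals in each of the 20 groups. Larvae and nonexercised adults were sequenced on a single flow cell, with a lane for each replicate number. Exercised females and exercised males were each sequenced in a lane of a second flow cell, so exercise cannot be told apart from flow cell, nor the sex of exercised flies from lane. Replicates are separate pools of a single line, and p-values measure the spread between such pools.

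CG numbers are the identifiers given to predicted genes when the fly genome was annotated, and most genes still listed by them have not been studied closely. Drosophila males have a single X, and in their somatic cells the MSL complex, made of MSL proteins, the helicase MLE, the acetyltransferase MOF and the roX RNAs, raises transcription along that chromosome. The gonads account for much of the sex difference in RNA from whole flies: the testis, where spermatocytes switch on a large set of genes used nowhere else, and the ovary, which fills eggs with RNA and secretes their shells. Genes with testis-restricted expression are known to be less frequent on the X than on the autosomes.

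Levels are given as normalised CPM, counts per 1000000 after scaling by the trimmed mean of M values (TMM). The libraries held 18493813 to 26917796 counts each, of which 6.94% to 42.9% fell on ribosomal RNA and 7SL RNA, so 3 counts, taken as the floor of detection, corresponded to 0.0906 to 0.201 CPM. This share was 6.94% to 11.7% in exercised males, 20.7% to 32.5% in exercised females and 18.8% to 27.6% in nonexercised males. It was 12.2% to 26.2% in nonexercised females and 33.2% to 42.9% in larvae. Exercised males and larvae each overlapped no other set, so comparisons that use them also compare unlike shares of such RNA. Libraries matched their labels for stage and sex with 2 exceptions in part and a lesser one, given last. The 7 yolk and eggshell genes used as female markers summed to 12239 to 21158 CPM in nonexercised females, 8486 to 12613 in exercised females and 8.64 to 114 in nonexercised males. In exercised males they ranged from 7.01 to 3861 CPM, with 3861 in A31P replicate 2 (31.1% of the female median) and 350 in R820W replicate 2 (2.82%). The 4 female germline genes summed to 4.31 to 273 CPM in exercised males, again highest in these libraries. These are called the 2 doubtful libraries below, and values without them are given beside the sex and exercise counts that use them. The 7 male germline genes summed to 1008 to 1464 CPM in adult males, 132 to 492 in larvae and at most 1.39 in adult females, where Mst84Da and aly stayed at or under 3 counts in every library. The lesser exception, kept throughout, was attP2 nonexercised male replicate 1. It held the 114 CPM of yolk and eggshell genes, against 8.64 to 11.3 in the other nonexercised males. Its female germline sum was 10.5 CPM, and its male germline sum (1008 CPM) was the lowest in adult males.

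The dosage compensation genes marked the sexes as labelled. The roX1 RNA was at 1349 to 1480 CPM in nonexercised males, 440 to 1165 in larvae and 8.49 to 39.1 in nonexercised females, and roX2 was higher in males by a Log2FC of 8.16. msl-2, which codes for the male-specific protein of the complex, was higher by 0.95. The transcripts of msl-1, msl-3, mof and Clamp, a zinc finger protein that recruits the complex, were lower in males (Log2FC −2.32, −1.77, −1.45 and −1.13), as was that of Sxl, the female switch gene (−1.43). mle and the kinase gene JIL-1 did not pass the threshold (both −0.40).

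In nonexercised adults the ranges of the share of counts held by the X-linked CG-numbered genes overlapped between the sexes, while the 3L genes held more in males. Of all counts other than ribosomal and 7SL RNA, the X members took 3.72% to 4.17% (median 3.97%) in nonexercised females and 3.69% to 3.97% (median 3.84%) in nonexercised males, and these ranges overlap. In exercised flies they took 4.07% to 4.35% (median 4.24%) in females and 3.89% to 4.11% (median 4.03%) in males, or 3.89% to 4.04% in males without the 2 doubtful libraries, where the ranges no longer overlap. The 3L genes took 5.99% to 6.56% in the male libraries without exercise and 4.56% to 4.70% in the female ones, without overlap. The ratio of X to 3L counts was therefore higher in every nonexercised female library (0.815 to 0.891, median 0.851) than in every nonexercised male library (0.577 to 0.626, median 0.603). In exercised flies the ratio was 0.931 to 0.966 in females and 0.625 to 0.676 in males, the highest male value being that of A31P replicate 2, and 0.625 to 0.647 in males without the 2 doubtful libraries. Larvae lay between, at 0.697 to 0.800 (median 0.740), with X members at 3.25% to 3.62% of counts.

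**Figure D1:**
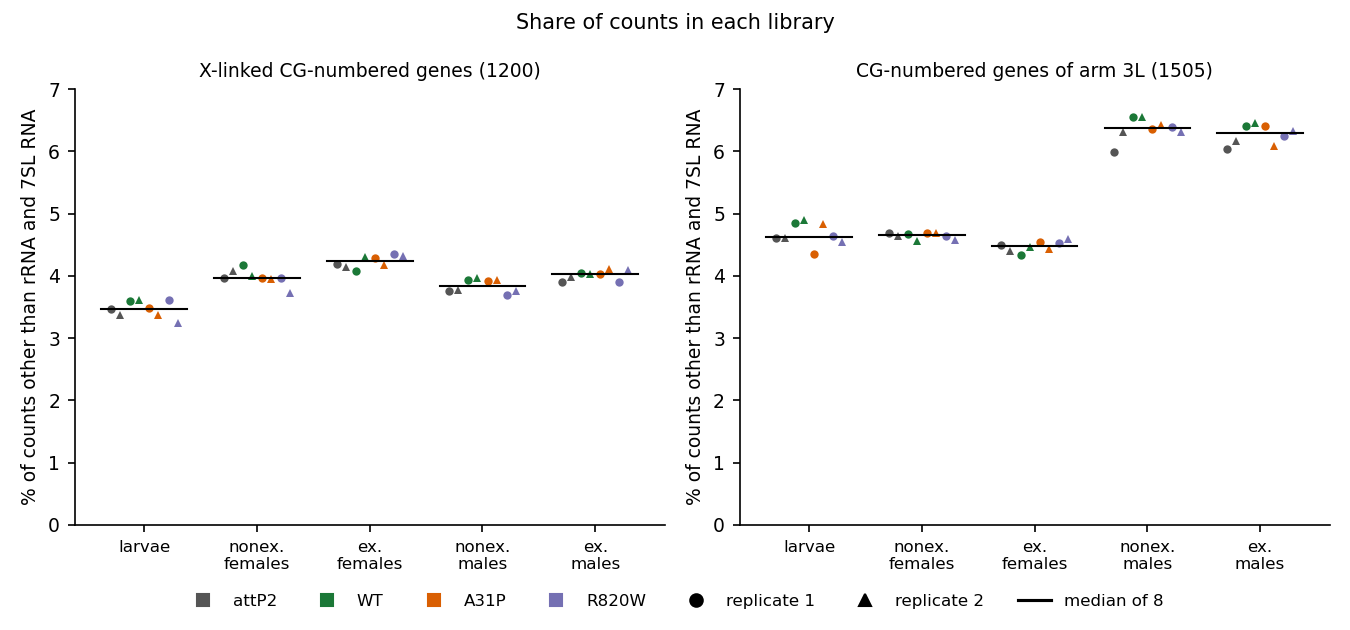
Share of the counts other than ribosomal and 7SL RNA, in percent, taken by the X-linked CG-numbered genes and by the CG-numbered genes of 3L in each of the 40 libraries, by set; each point is a library. The X shares of adults lie between 3.69% and 4.35%, with overlap of the sexes in nonexercised flies, whereas the 3L shares lie between 4.33% and 4.70% in females and between 5.99% and 6.56% in males.

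The sexes also differed in how many members were present. Over genes with at least 1 CPM in every library of all 5 sets, 640 X members (53.3%) and 702 genes of 3L (46.6%), the median log2 level of X members lay 0.07 to 0.15 above that of the 3L genes in nonexercised females and 0.10 to 0.18 below it in nonexercised males. The corresponding differences were 0.14 to 0.23 above in exercised females, 0.02 to 0.11 below in exercised males and 0.05 to 0.20 below in larvae, so the groups of adult libraries still did not overlap between the sexes. An adult male library held 985 to 1017 members at 1 CPM or more, an adult female library 727 to 781 and a larval library 918 to 967. In all, 961 members (80.1%) reached 1 CPM in every male library, 866 (72.2%) in every larval library and 703 (58.6%) in every female library, against 73.7%, 70.9% and 50% of the 3L genes.

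Sets of genes seen in some libraries and at the floor in all others were almost wholly shared by males and larvae. There were 73 such X members in adult males and larvae (6.08%, against 7.77% on 3L), with a median larval level of 34.9% of the male level. Seen in adult males alone were 3 members. CG11664 was at 2.39 to 4.07 CPM in nonexercised males and 2.31 to 3.38 in exercised males, CG14635 at 2.15 to 4.5 and 1.59 to 3.52, and CG15641 at 1.88 to 3.85 and 6.37 to 7.46. CG15641 was the only one of the 3 whose male sets did not overlap. No X member and no 3L gene was seen in adult females alone or in females and larvae alone. The larva-only members were CG12715 (77.7 to 199 CPM), CG12539 (13.3 to 60.1), CG15756 (5.15 to 25.2) and CG12481 (1.47 to 7.12). The adult-only members were CG34324, CG43673, CG9519, CG1889 and CG32523. A further 19 members stayed at or under 3 counts in all 40 libraries, against 64 of the 3L genes.

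Sex was compared first in nonexercised adults, by edgeR's quasi-likelihood test with a call at Benjamini-Hochberg adjusted p under 0.05 and an absolute Log2FC over 0.5. Of 1094 X members with enough counts to be tested, 500 (45.7%) were higher in males and 384 (35.1%) higher in females, and 210 were not called. Over all 14095 genes tested, 46.5% were called higher in males and 33.8% higher in females, so the X members' shares lay near the background. On 3L, 660 of 1272 genes (51.9%) were higher in males and 367 (28.9%) in females. The median Log2FC, male over female, was 0.26 for X members, 0.67 for 3L genes and 0.33 for all genes. A like median was also taken within each genotype, from log2 ratios of mean normalised CPM with a small constant added, not from the edgeR fit. It was 0.27 ± 0.13 for X members and 0.63 ± 0.12 for 3L genes (SD, n = 4). All 8 male libraries lay beyond all 8 female libraries for 444 of the members called higher in males and 362 of those called higher in females, 40.6% and 33.1% of the members tested. Over all genes tested these shares were 39.5% and 31.1%. In whole animals, fewer cells of a type and less RNA per cell cannot be told apart.

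The sign of these medians differed between all genes tested and genes with at least 1 CPM in all 16 libraries, a filter that leaves out genes near the floor in either sex. Among the latter the median Log2FC was −0.37 for 702 X members and −0.28 for 784 genes of 3L. Called higher in males were 184 of these X members and 245 of the 3L genes, and higher in females 330 and 329. The share over all genes is not given for this filter. A difference over 5 on the log2 scale in favour of males was found for 212 X members (19.4%), 288 genes of 3L (22.6%) and 18.1% of all genes. In favour of females it was found for 27 X members (2.47%), 14 genes of 3L (1.10%) and 1.61% of all genes. Of the 212, 134 were at or under 3 counts in all 16 adult female libraries, 194 were above 3 counts in all 8 larval libraries, and their median larval level was 34.9% of the male level. The 288 genes of 3L were alike. Of these, 167 were at or under 3 counts in all adult female libraries and 252 above 3 counts in all larval libraries, with a median larval level of 30.5%. The excess of males over females is set by the choice of these genes. Their median larval level lay below the male level, as did that of the male germline markers given above, whose part in the result was not tested. Scaling by relative log expression in place of TMM moved the median of all genes up by 0.16, and the X median to 0.42.

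**Figure D2:**
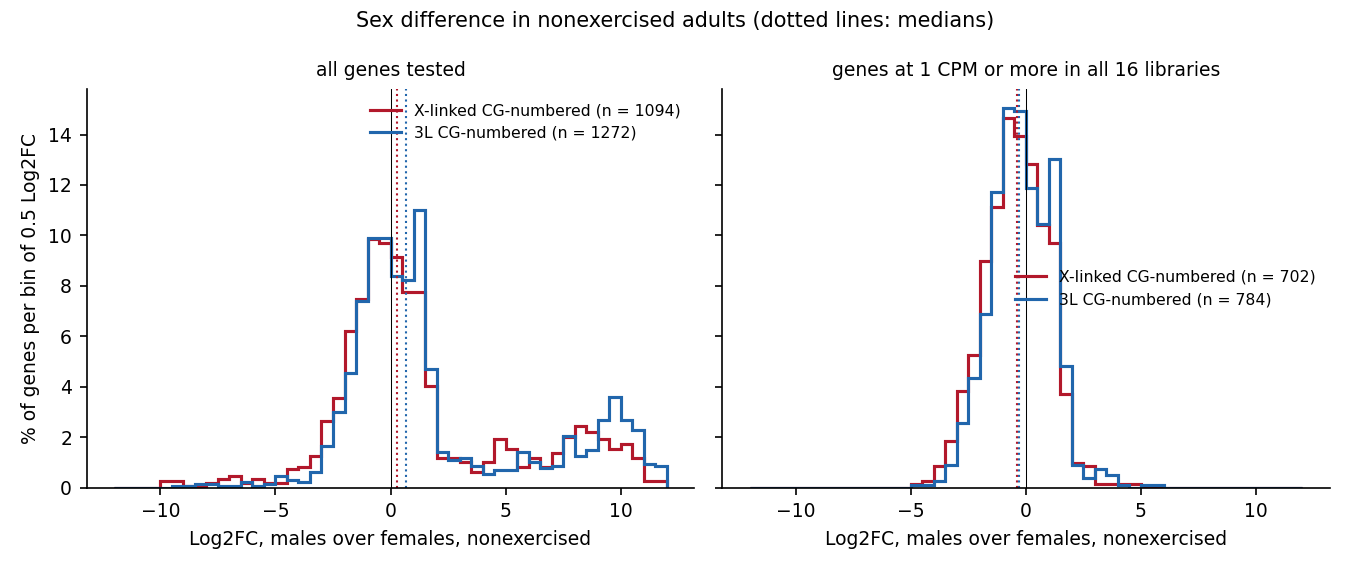
Distribution of the Log2FC, nonexercised males over nonexercised females, of the CG-numbered genes of the X and of 3L, for all genes tested and for genes with at least 1 CPM in all 16 libraries; the vertical axis gives the share of genes in percent and the dotted lines the medians. Over all genes tested the medians are 0.26 (X) and 0.67 (3L), and among genes seen in every library they are −0.37 and −0.28, where the group of genes above 5 is nearly absent; the outermost bins hold all more extreme values.

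The members with the largest male excess at high levels were at or near the floor in females and at lower levels in larvae. CG8565, annotated as the SR protein kinase SPRK2 (X:15837830-15841160, plus strand, 4 exons, build 6 of the fly genome), was at 97.6 to 159 CPM in nonexercised males (median 150.3), 118 to 159 in exercised males (median 145), 25.5 to 85.5 in larvae (median 53.0) and at most 0.290 in any adult female library. No male library overlapped any larval or female library. The Log2FC was 9.90 (SE 0.18, adjusted p = 5.38e-19, edgeR) in nonexercised and 10.53 (SE 0.26, adjusted p = 2.87e-15, edgeR) in exercised adults, and larvae were below nonexercised males by −1.41. CG1394 (X:11169811-11170678, minus strand, a single exon) was at 97.8 to 141 CPM in nonexercised males and 13.9 to 54.5 in larvae, and under 3 counts or at it in every nonexercised female library, which makes the male level at least 1035-fold higher, taking 3 counts per library for the females. CG1324 (91.7 to 138 CPM in nonexercised males, 9.81 to 32.9 in larvae), CG16782 (81.9 to 119 and 14.0 to 41.7) and CG12470 (90.4 to 140 and 10.7 to 40.9) had the same order, with Log2FC of 10.47, 10.18 and 8.70 between nonexercised males and females. In all 5 of these genes attP2 nonexercised male replicate 1 was the lowest of its set.

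Across the 20 group means the pattern of CG8565 was closest to those of CG15306 (Pearson r = 0.9998), CG2871 (0.9995) and CG32568 (0.9988), a description over points that share libraries. CG15306 was at 63.2 to 98.6 CPM in nonexercised males, 14.6 to 59.1 in larvae and at most 0.148 in adult females.

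The members with the largest female excess were near the floor in larvae as well. CG42704 (X:7412668-7413296, plus strand, 3 exons) was at 114 to 180 CPM in nonexercised females (median 135), 55.7 to 79.8 in exercised females (median 75.4), at most 0.200 in larvae and at most 0.936 in nonexercised males. The Log2FC, male over female, was −9.30 in nonexercised adults (SE 0.27, adjusted p = 3.10e-16, edgeR). CG6927 was at 60.6 to 148 CPM in nonexercised females, 129 to 167 in exercised females and at most 0.515 in nonexercised males (Log2FC −9.80), and CG11674 at 50.9 to 100.4, 101 to 140 and at most 0.187 (−9.86). CG43134 (79.9 to 145 CPM in nonexercised females, 0.492 to 2.20 in nonexercised males) and CG15570 (5.88 to 219 and 0.297 to 0.715) followed with −7.10 and −7.41. CG42704 was lower in exercised than in nonexercised females, as was the yolk and eggshell sum (median 10735 against 15942 CPM). The ranges of CG6927 and CG11674 were higher in exercised females, as was that of the female germline sum (1812 to 2319 against 1372 to 2097 CPM). The part of either cell type in these results was not tested.

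**Figure D3:**
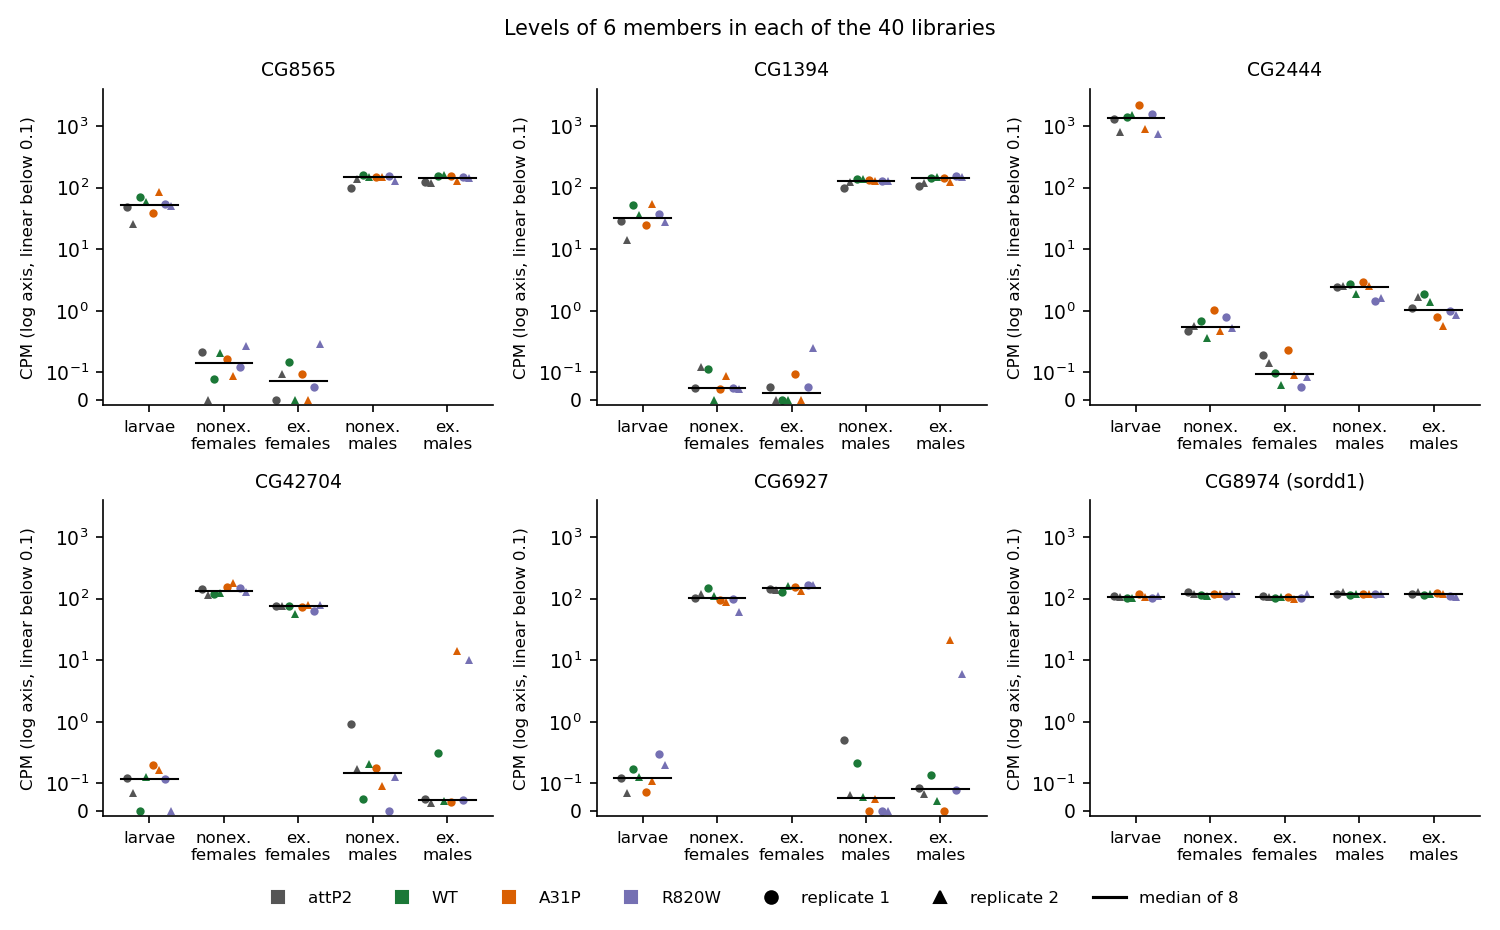
Normalised CPM of 6 X-linked members in each of the 40 libraries by set, on an axis that is linear near 0 and logarithmic above; each point is a library. CG8565 and CG1394 are high in males and intermediate in larvae, CG42704 and CG6927 are high in females, CG2444 is high in larvae (751 to 2175 CPM), and CG8974 stays between 97.8 and 129 CPM throughout; 2 exercised male libraries stand above the other males in CG42704 and CG6927.

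CG42705 begins 572 bases after CG42704 and had the pattern closest to it (r = 0.997 over the 20 group means), at 18.6 to 29.4 CPM in nonexercised females, 10.9 to 14.6 in exercised females and at most 0.140 in nonexercised males. CG43090 (0.994) and CG43134 (0.990) came next. Both neighbours were lower in exercised than in nonexercised females, CG42705 by a Log2FC of −0.86.

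CG15570 and its neighbour CG15571, which ends 775 bases before it, varied widely between nonexercised female libraries. CG15570 was at 139 and 219 CPM in WT, 111 and 67.8 in attP2, 83.6 and 30.4 in R820W, and 50.2 and 5.88 in A31P. CG15571 was at 7.71 and 13.6 in WT, 5.17 and 4.06 in attP2, 4.42 and 1.41 in R820W, and 4.04 and 0 in A31P. Both were highest in WT replicate 2, the female library with the most yolk and eggshell RNA (21158 CPM), and lowest in A31P replicate 2, where that sum was 17014 CPM, above the female median.

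In exercised adults 1104 X members were tested, of which 549 (49.7%) were higher in males and 396 (35.9%) higher in females, with 159 not called. The share of all genes called was 51.8% for males and 34.8% for females, and 3L had 708 of 1297 (54.6%) and 409 (31.5%). The median Log2FC was 0.50 for X members, 0.94 for 3L genes and 0.68 for all genes, and 0.57 for X members without A31P and R820W exercised male replicate 2, a setting chosen after seeing the data. Among genes with at least 1 CPM in every library the X median was −0.51 (676 members) and the 3L median −0.35 (746 genes). All libraries of the sexes stood apart for 511 of the members called higher in males and 372 of those called higher in females, 46.3% and 33.7% of the members tested, against 47.7% and 32.9% of all genes. Without the 2 doubtful libraries 560 of 1109 members were called higher in males and 388 higher in females, against 7600 and 4883 of all 14414 genes. Of these members 521 and 373 stood apart, 47.0% and 33.6% of those tested, against 48.7% and 32.4% of all genes. The counts of 521 and 373, like those of libraries standing apart by exercise below, were added after seeing the data.

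The nonexercised and the exercised comparisons share no library. Of 1086 members tested in both, 483 were called higher in males in both, 96.6% of the nonexercised and 88.0% of the exercised list, and 357 were called higher in females in both, 93.0% and 90.2% of those lists. Over all genes the corresponding shares were 96.5% and 85.9% for males, and 90.9% and 87.4% for females. The members CG12116 and CG7884 were called in opposite directions. CG12116 was at 116 to 229 CPM in nonexercised females (median 139) and 78.1 to 105 in nonexercised males (median 93.5), and at 43.7 to 119 in exercised females (median 86.0) and 114 to 178 in exercised males (median 153). Its Log2FC, male over female, was −0.70 (adjusted p = 1.90e-05, edgeR) without and 0.86 (adjusted p = 5.82e-05, edgeR) after exercise, and that of CG7884 −1.51 and 1.14. CG7884 was scarce, at 0.341 to 1.49 CPM (females) and 0.0515 to 0.753 CPM (males) without exercise. After exercise it was at 0.0964 to 0.290 CPM (females) and 0.193 to 0.864 CPM (males). The sexes overlapped each time, and the lowest values lay under the floor of 3 counts (0.0906 to 0.201 CPM). The change of direction of CG7884 thus rests on few counts. CG12116 and CG7884 were picked out after their values were seen.

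**Figure D4:**
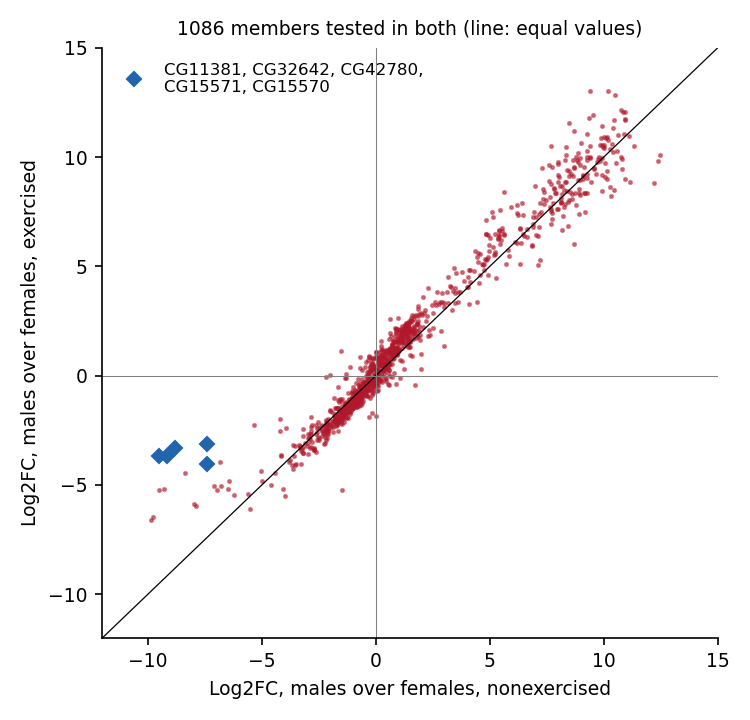
Log2FC, male over female, of 1086 X-linked members in nonexercised adults (horizontal) and in exercised adults (vertical); each point is a gene and the blue diamonds are the 5 genes with the largest interaction of sex and exercise. Most genes lie along the diagonal, and the 5 marked genes lie far below 0 in nonexercised adults and nearer 0 in exercised adults, where the 2 male libraries with female marker RNA enter the fit.

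The female-high members showed the 2 doubtful libraries most clearly. In exercised males CG42704 was at 14.4 CPM in A31P replicate 2 and 10.2 in R820W replicate 2, and at 0.0302 to 0.312 in the other 6 libraries. The exercised Log2FC of CG42704 was −5.20 (SE 0.94, adjusted p = 7.68e-05, edgeR) with these libraries and −9.65 without them. CG6927 was at 21.2 and 5.94 CPM in the same 2 libraries and at 0.139 or less in the others, and its Log2FC went from −6.47 to −11.01. CG11674 went from −6.62 to −10.84, CG4586 (71.2 to 102 CPM in exercised females) from −5.46 to −6.91, and CG2990 (72.7 to 97.0 CPM), annotated as the nuclease and helicase Dna2, from −5.43 to −6.62. All were called either way.

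The difference of the sex difference between exercised and nonexercised adults, the interaction of sex and exercise, was called upwards for 208 and downwards for 84 of 1113 X members (254 and 137 of 1312 on 3L), against 20.3% and 8.64% of all genes. Without the 2 doubtful libraries the counts were 197 and 152, for which the share over all genes is not given. The 5 members with the largest interaction were CG11381 (6.48, adjusted p = 0.00186), CG32642 (6.31, adjusted p = 0.00987), CG42780 (5.96, adjusted p = 0.000231), CG15571 (5.01, adjusted p = 0.0275) and CG15570 (4.74, adjusted p = 0.00556; edgeR). Without the 2 libraries these became 0.36, 0.30, 2.75, −0.33 and 0.19, and only CG42780 was still called (adjusted p = 0.0313, edgeR). CG42780 was at 5.94 to 12.0 CPM in nonexercised females, 2.75 to 3.57 in exercised females, at most 0.0424 in nonexercised males and 0 to 0.997 in exercised males.

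Members were also taken in their order along the X, where a run is a row of neighbouring members with the same call. Runs of 1 member were the most frequent, 99 in each direction. The longest run of neighbouring members called higher in nonexercised males held 14 genes in X:19909318-20155514, a span with 40 genes of the table. Their Log2FC ran from 0.59 to 11.09 with a median of 8.30. In order they are CG45486, CG45488, CG45489, CG45490, CG45491, CG45493, CG45494, CG43784, CG12655, CG17003 (lky), CG9570, CG34331, CG34332 and CG9572 (aspr). CG9570 was at 40.9 to 58.6 CPM in nonexercised males, 42.2 to 58.8 in exercised males, 4.42 to 17.4 in larvae and at most 0.0816 in adult females, so the nonexercised male level was at least 434-fold higher. CG45490 was at 16 to 33.5 CPM in nonexercised males, at least 209-fold above nonexercised females. CG45486 to CG43784 are adjacent genes of like size and structure on the minus strand, so reads shared among near-identical copies cannot be told apart. The calls of CG12655 and CG45489 were lost when single libraries were left out (attP2 nonexercised female replicate 1 for CG12655, and WT nonexercised female replicate 1 or attP2 nonexercised male replicate 2 for CG45489).

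The second male run held 11 members in X:4641269-4906575, among 26 genes, with Log2FC from 1.39 to 10.91 and a median of 7.45. CG2871 was at 27.2 to 46.0 CPM in nonexercised males, 7.99 to 27.0 in larvae and at most 0.0765 in nonexercised females, at least 328-fold lower than in males. CG7024 was at 39.6 to 54.9 CPM in nonexercised males, with a Log2FC of 7.45. The run also holds CG3062, CG3009, CG15472, CG15471, CG6978, CG2861, CG12682, CG42594 and CG12681 (boil). It ends 324 bases before CG6927, the female-high gene described above.

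The longest female run held 8 members in X:17698917-17852685, among 16 genes, with Log2FC from −3.53 to −0.73 and a median of −1.01. CG8173 was at 34.8 to 94.5 CPM in nonexercised females, 93.0 to 147 in exercised females, 14.7 to 18.4 in larvae and 4.78 to 6.84 in nonexercised males (Log2FC −3.53, SE 0.15, adjusted p = 1.79e-13, edgeR). CG8142, a replication factor C subunit, which loads the sliding clamp onto DNA, was at 15.3 to 28.5 and 2.05 to 4.61 CPM in nonexercised females and males (Log2FC −2.73). The other members are CG8188, CG42684, CG6398, CG15814, CG6506 and CG32554. A second female run of 6 members in X:5905746-5948353 had Log2FC from −2.02 to −0.54. It includes CG12236 (27.4 to 53.5 CPM in nonexercised females, 8.65 to 12.1 in nonexercised males) and CG3011 (Shmt), serine hydroxymethyltransferase, which links amino acid and folate metabolism, at 108 to 128 and 60.1 to 98.3 CPM. The smallest differences of that run lost their call under relative log expression scaling and DESeq2, for CG3011 (Log2FC −0.54) and CG3726.

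Members of the sex classes also differed in structure, which the rule did not use. The 500 members higher in males had a median genomic span of 1718.5 bp, 26.1% had a single exon and 10.0% carried another symbol in the annotation. The 384 higher in females had a median span of 2247.5 bp, 15.5% with a single exon and 25% with another symbol. For the 106 members with too few counts to be tested the values were 1216.5 bp, 32.4% and 1.89%. The 3L genes had the same order (1726 bp, 26.2% and 13.5% for male-high genes, 1943 bp, 14.9% and 27.0% for female-high genes). These are descriptions, and longer genes also gather more counts.

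Of the 196 members with another symbol, 45 were placed in 4 groups, picked by symbol and known function with earlier results of these data known. The group of RNA processing and translation was drawn widely and also holds nuclear pore and RNA polymerase III genes, such as Nup35 and Polr3A. All its 15 members were called lower in nonexercised males than in females. Their median Log2FC was −1.66 (0.33 over all genes, of which 33.8% were called lower and 46.5% higher in males). Nup35, a nuclear pore protein, was at 10.8 to 26.3 CPM in females and 1.49 to 2.86 in males (Log2FC −3.01). Polr3A, a subunit of RNA polymerase III, had −2.20, Prp5, a splicing helicase, −2.14, and eIF3g1, a translation initiation factor subunit, −1.16. In larvae 13 of the 15 were higher than in nonexercised males and 8 were lower than in nonexercised females, against 34.4% and 33.9% of all genes. Of 8 members in GPI anchor and glycan synthesis, 6 were lower in males, among them Chpf, of chondroitin synthesis (−2.13), and 1 was higher, Chsy, of the same pathway (0.57).

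Of 7 germline and centriole members, 4 were lower and 2 higher in nonexercised males, against 33.8% and 46.5% of all genes. The lower ones were moon, which drives transcription of piRNA clusters in the ovary (Log2FC −6.78), narya, of meiotic crossover formation (−6.45), Gcna, a germ cell nuclear protein (−4.98), and Rtel1, a DNA helicase (−2.88). The higher ones were Alms1b, a centriole protein (3.99), and Cep164, of the centriole's distal appendages (1.38), while the close relative Alms1a was not called (0.20). The female germline markers summed to 1372 to 2097 CPM in females of this comparison and to 3.72 to 10.5 in males.

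The 15 members of the respiratory chain and coenzyme Q synthesis were for the larger part not called. In nonexercised males 6 were higher, 1, Coq5, was lower (−0.75) and 8 were not called, with a median Log2FC of 0.48, against 46.5% of all genes higher and 33.8% lower. Apart from SdhBL, a relative of the iron-sulphur subunit of succinate dehydrogenase (49.0 to 75.4 CPM in nonexercised males, 7.54 to 26.1 in larvae and at most 0.188 in adult females), the differences were small, between 0.51 and 0.53 for ND-20, ND-24, ND-ASHI, UQCR-14 and Cox17, close to the threshold. In larvae 14 of 15 were lower than in nonexercised males (median −1.54) and 14 lower than in nonexercised females (median −1.07). Of all genes 40.2% and 33.9% were so called. CG3560 (UQCR-14), a complex III subunit, was at 212 to 324 CPM in nonexercised males, 141 to 260 in nonexercised females and 52.5 to 98.2 in larvae. It was lower after exercise in both sexes (Log2FC −0.76 in females and −0.64 in males).

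Larvae were set against nonexercised adults of each sex, on the same flow cell. Against females, 416 of 1089 X members (38.2%) were higher and 405 (37.2%) lower in larvae, with 40.1% and 33.9% of all genes so called and 47.0% and 31% on 3L. The median Log2FC was −0.07 for X members and 0.31 for 3L genes. The medians by genotype, from mean normalised CPM as for sex, were −0.07 ± 0.06 and 0.30 ± 0.03 (SD, n = 4). The X median was 0.11 under relative log expression scaling, which moved all genes by 0.18. Against males, 332 of 1087 X members (30.5%) were higher and 479 (44.1%) lower in larvae, with 34.4% and 40.2% of all genes so called, and the medians of X (−0.26) and 3L (−0.28) lay together. A larval level over adult females by more than 5 on the log2 scale was found for 203 X members (18.6%), 313 genes of 3L (24.2%) and 15.8% of all genes.

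Larva-high members were led by CG2444, at 751 to 2175 CPM in larvae (median 1372), 1.47 to 2.97 in nonexercised males and 0.367 to 1.02 in nonexercised females. Its Log2FC was 11.06 over females (SE 0.30, adjusted p = 7.51e-14, edgeR) and 9.16 over males (SE 0.28, adjusted p = 3.32e-13, edgeR). CG8664 (189 to 716 CPM in larvae) was under 1 CPM in all adults. CG12115 (124 to 229 CPM), CG15308 (104 to 221) and CG12715 (77.7 to 199) were at least 1345-, 1218- and 900-fold above nonexercised females. The larval marker list, storage and glue proteins, summed to 31153 to 50492 CPM in larvae and at most 423 elsewhere.

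Adult-high members differed in how the sexes shared them. CG1678 (whe), the member with the highest mean TPM of all (1287 over the 40 libraries, transcripts per 1000000, a unit that allows for gene length), was at 0.397 to 1.14 CPM in larvae, 506 to 674 in nonexercised males and 390 to 553 in nonexercised females, with Log2FC of −9.35 (SE 0.17, adjusted p = 1.29e-15, edgeR) and −9.82 for larvae over females and males. CG34324 was at 0.0567 to 0.178 CPM in larvae, 122 to 174 in nonexercised males and 38 to 71.6 in nonexercised females, so larvae lay at least 290-fold below females and 766-fold below males. CG12990 (91.4 to 118 CPM in nonexercised males) and CG18258 (57.3 to 103) were male-high as well as adult, with at most 0.414 and 3.78 CPM in nonexercised females and at most 0.219 and 0.134 in larvae. CG1561 (pkm) was at 67.1 to 109 CPM in nonexercised males, 31.8 to 54.8 in nonexercised females and at most 0.241 in larvae.

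By mean TPM, CG2233 (879), CG3560 (359), CG2444 (186) and CG9691 (167) followed CG1678. CG2233 was at 1544 to 2997 CPM in larvae, 876 to 1343 in nonexercised and 581 to 739 in exercised females, and 1033 to 1434 in nonexercised males. Its male and female ranges overlapped. It was lower in exercised than in nonexercised females (Log2FC −0.72) and not called in males (−0.09), and this difference between the sexes passed the test (interaction 0.60, adjusted p = 6.86e-05, edgeR). CG9691 was higher in males by 1.93. The steadiest members among those at 10 CPM or more were CG8974 (sordd1, an E3 ubiquitin ligase; SD of log2 CPM over 40 libraries 0.10, range 97.8 to 129 CPM) and CG1637 (SD 0.12, range 86.6 to 141 CPM).

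Exercised flies were set against nonexercised flies within each sex, a contrast that is also a contrast of flow cells. In females 165 of 866 X members were higher and 191 lower after exercise, 16% and 25.4% of all genes being so called. In males 53 of 1085 were higher and 34 lower, against 5.82% and 5.61% of all genes. Without the 2 doubtful libraries these were 43 and 38 of 1077, against 771 and 731 of all 14241 genes. Over all members tested the median Log2FC was 0.06 in females and 0.06 in males (3L −0.02 and −0.02, all genes −0.02 and 0.01). The median Log2FC of members at 1 CPM or more in every library was 0.14 in females and 0.06 in males (3L 0.05 and −0.03). All 8 exercised libraries lay beyond all 8 nonexercised libraries for 73 members called higher and 95 called lower in females, 8.43% and 11% of those tested, against 7.75% and 13.0% of all genes. In males these were 25 and 13 members, 2.30% and 1.20%, against 2.73% and 2.45% of all genes. Without the 2 doubtful libraries they were 29 and 16 members, 2.69% and 1.49%, against 3.12% and 2.42% of all genes.

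CG5966, a predicted triglyceride lipase, rose in both sexes. It was at 48.4 to 64.9 CPM in nonexercised and 139 to 315 in exercised females (Log2FC 1.95, SE 0.12, adjusted p = 2.89e-08, edgeR), and at 47.8 to 101 and 127 to 434 in males (2.17, SE 0.19, adjusted p = 3.97e-07, edgeR). The sets did not overlap in either sex, and the interaction was not called (0.16, adjusted p = 0.630, edgeR). Larvae had 184 to 286 CPM of the same transcript.

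Other members moved in females. CG12708 went from 0.879 to 4.55 CPM in nonexercised to 11.1 to 28.9 in exercised females (Log2FC 3.30, SE 0.13, adjusted p = 1.59e-09, edgeR) and stayed at or under 2.39 CPM in males. CG11700, a ubiquitin gene, went from 2.57 to 4.34 CPM to 13.6 to 24.8 (2.43, SE 0.13, adjusted p = 1.44e-08, edgeR), while males were at 9.61 to 12.3 and 12.5 to 17.0 CPM (0.30), and the sexes differed in this (interaction −2.16, adjusted p = 2.36e-12, edgeR). CG8097 and CG11403 (Chl1, a DNA helicase) had Log2FC of 1.4 and 1.27. Among the lower ones, CG3106, a predicted acyltransferase, went from 28.4 to 49.1 CPM to 3.96 to 13.6 (−2.27, SE 0.21, adjusted p = 7.39e-07, edgeR). CG12398, an oxidoreductase, went from 9.19 to 24.6 CPM to 1.77 to 5.27 (−2.08), and CG33082 (Rpp21), a subunit of ribonuclease P, from 7.74 to 10.2 CPM to 1.95 to 4.73 (−1.52). CG32751 (−2.26) and CG1561 (−1.33) fell too.

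In males CG15784 went from 51.9 to 67.9 CPM to 122 to 162 (Log2FC 1.22, SE 0.07, adjusted p = 6.26e-09, edgeR) and CG15043 from 17.7 to 32.3 CPM to 37.0 to 131 (1.54, SE 0.26, adjusted p = 0.000271, edgeR). CG15641, the male-only member, rose by 1.20. CG6067 fell from 69.8 to 104 CPM to 26.7 to 65.8 (−1.14), CG14439 from 45.8 to 66.9 CPM to 27.2 to 43.2 (−0.81), and CG15449 (−1.62), CG9400 (−1.11) and CG42237 (−0.98), a phospholipase A2, fell too. CG32500, an iron-sulphur scaffold protein gene of the Nfu type, was at 0 to 3.09 CPM in nonexercised and 5.24 to 11.8 in exercised males and at 0 in all larvae, and reads of its near-identical copies may be split unevenly. Without the 2 doubtful libraries the Log2FC of CG15784, CG15043, CG6067 and CG9400 in males were 1.23, 1.46, −1.02 and −0.96, and that of CG5966 was 1.99.

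The feline alleles were compared with attP2 within each set, and A31P and R820W also with WT. No X member was called in any line against attP2 in larvae (of 1023 tested), nonexercised females (of 846) or exercised females (of 823), where 0.0467%, 0.208% and 0.159% of all genes were called in at least 1 line. At an unadjusted p under 0.05 the X members numbered 44 to 105 per line in larvae, against 609 to 1537 of all 12848 genes. In nonexercised females they numbered 37 to 110, with 37 in WT and 53 in A31P, against 668 and 764 of all 11063 genes. In exercised females they numbered 12 to 60. DESeq2 called 11, 5 and 10 members in larvae, exercised females and nonexercised females. Shares over all genes are not given for exercised females or for DESeq2, so these counts are not read as results about the members. In nonexercised males 10 of 1058 members were called in at least 1 line (1.77% of all genes), 2 of them in 2 lines. In exercised males 8 of 1084 were called (1.52% of all genes), 1 of them in 2 lines. No member was called in all 3 lines of any set.

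These counts rested on single libraries, whose removal leaves a lone sample assumed to vary like the others. Shares over all genes are not given for such removals, so their counts are not read as results about the members. Leaving out a library gave 0 to 153 members in nonexercised females, the highest without R820W replicate 1. It gave 1 to 162 in nonexercised males, the highest without attP2 replicate 2, and 0 to 173 in exercised males, with 173 without A31P replicate 1 and 46 without A31P replicate 2. With the lane (replicate) as a block the counts were 7 in nonexercised males (1.63% of all genes) and 1 in nonexercised females (0.904% of all genes). Of the 30 single calls of members against attP2 or WT, 29 were lost in at least 1 such repeat, the exception being CG18258 in R820W nonexercised males against attP2.

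In nonexercised males CG18258, the male-high adult gene above, was at 66.5 and 57.3 CPM in R820W, 98.2 and 103 in attP2, 97.9 and 94.5 in WT, and 93.6 and 96.6 in A31P. R820W thus lay below the other 6 libraries, by −0.69 against attP2 (adjusted p = 0.00889, edgeR) and −0.63 against WT (adjusted p = 0.0144, edgeR). CG9281 was at 76.0 and 68.7 CPM in A31P and at 123 to 133 in the other 6 libraries, by −0.81 against attP2 (SE 0.09, adjusted p = 0.00175, edgeR) and −0.80 against WT (adjusted p = 0.00480, edgeR). The first of these was lost only without A31P replicate 2 (highest adjusted p of the repeats 0.0651, edgeR). CG14439 was at 45.8 and 47.1 CPM in R820W and at 61.9 to 66.9 in the others (−0.51 against attP2, adjusted p = 0.0217, edgeR). CG1561 was at 109 and 92.6 CPM in attP2 and at 67.1 to 74.2 in all 6 libraries with an insert, and was called in WT (−0.51) and R820W (−0.57). The remaining calls against attP2 were CG11160, CG32819, CG32820, CG40813, CG45486 and CG6470. All calls against attP2 in this set use its replicate 1, which held 114 CPM of yolk and eggshell genes.

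In exercised males CG3106, which fell with exercise in females, was at 34.7 and 28.6 CPM in attP2, 23.6 and 17.9 in A31P, 10.4 and 9.78 in WT, and 5.16 and 7.84 in R820W. It was called lower in WT (−1.61, adjusted p = 0.0239, edgeR) and R820W (−2.24, SE 0.22, adjusted p = 0.0117, edgeR), and both calls were lost without either attP2 library, that of WT also without either WT library and that of R820W without R820W replicate 2. CG12057 was at 109 and 79.3 CPM in attP2 and 48.2 and 47.4 in WT (−0.94, adjusted p = 0.0443, edgeR), and CG33667 was called in WT (0.52). The other 5 calls were neighbours in the male run described above, all higher in WT than in attP2. CG45490 was at 27.5 and 28.0 CPM in WT, 14 and 15 in attP2, 17.1 and 17.7 in A31P, and 18.9 and 18.2 in R820W (0.97, adjusted p = 0.00701, edgeR). CG43784 was at 13.1 and 13.8 CPM in WT and 7.14 and 6.64 in attP2 (1.00, adjusted p = 0.0145, edgeR), and CG45488, CG45493 and CG45494 had 1.05, 1.12 and 1.10. CG45486 (0.83, adjusted p = 0.0764, edgeR) and CG45491 (1.16, adjusted p = 0.0596, edgeR) did not pass. All 5 calls were lost without either WT or either attP2 library, and reads of these like copies cannot be told apart. The male germline sum of exercised males was 1414 and 1464 CPM in WT and 1078 and 1160 in attP2. It was 1351 and 1086 CPM in A31P, and 1334 and 1349 in R820W. Its part in these calls was not tested.

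**Figure D5:**
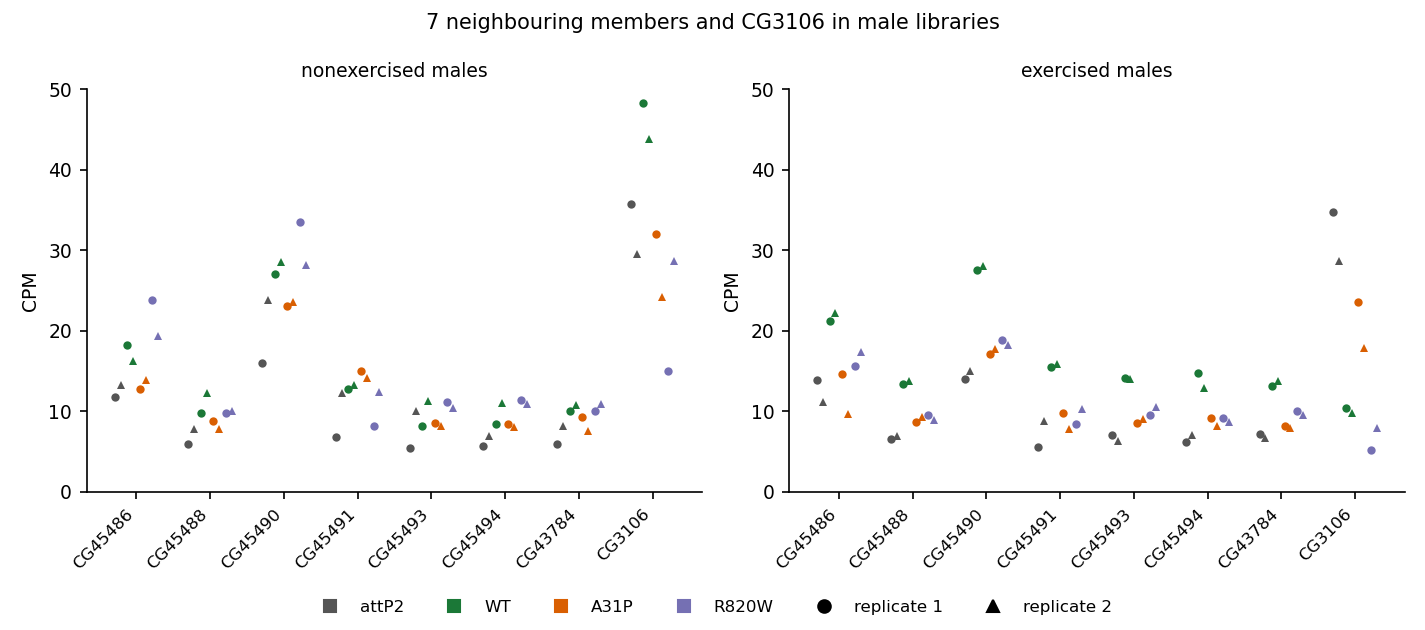
Normalised CPM of 7 neighbouring members of the male run and of CG3106 in nonexercised and exercised males of the 4 genotypes; each point is a library (2 per group). In exercised males the 2 WT libraries lie above the 2 attP2 libraries for the neighbours (27.5 and 28.0 against 14 and 15 CPM for CG45490), and CG3106 is lowest in R820W (5.16 and 7.84 CPM) and highest in attP2 (34.7 and 28.6 CPM).

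Against WT, no member was called in larvae, exercised females or exercised males (0.0156%, 0.00934% and 0.0791% of all genes). At an unadjusted p under 0.05 the members numbered 4 and 12 in larvae for A31P and R820W, against 170 and 244 of all 12848 genes. They numbered 8 and 16 in exercised females, and 134 and 38 in exercised males. DESeq2 called 0, 1 and 9 members in larvae, exercised females and exercised males. Shares over all genes are not given for exercised flies or for DESeq2. Leaving out A31P exercised male replicate 1 gave 177 calls. In nonexercised males 4 members were called (0.715% of all genes): CG9281 in A31P, and CG18258, CG5162 and CG15449 in R820W. CG5162 was at 271 and 255 CPM in R820W and 394 and 415 in WT (−0.62, adjusted p = 0.0114, edgeR), with attP2 and A31P at 358 to 369.

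In nonexercised females 5 members were called, all in R820W (1.12% of all genes). CG3777 was at 4.71 and 4.70 CPM in R820W, 1.20 and 1.35 in WT, 3.61 and 2.24 in attP2, and 1.67 and 2.26 in A31P (1.95, adjusted p = 0.0402, edgeR). CG43134, the female-high gene above, was at 89.1 and 79.9 CPM in R820W and 145 and 142 in WT (−0.70, adjusted p = 0.0335, edgeR). CG13360, CG34324 and CG4239 were higher in R820W by 0.91, 0.83 and 0.90. All 5 were lost in 7 of 8 repeats with a library left out and kept only without R820W replicate 1, when 277 members were called. With the lane as a block 78 of 846 members were called, and 11.5% of all genes.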

How the data were processed

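RNA from pools of 10 whole animals was depleted of ribosomal RNA and sequenced as strand-directional single reads in 40 libraries. Per the submitters' notes and methods, adapters were cut with Cutadapt, ribosomal reads were taken out with TopHat, and the authors counted the remainder per gene with CLC Genomics Workbench 11, using genome release 6.13. The strand setting and the handling of reads with several matches are not given in the sources used here. The deposited table gives raw counts per gene and library, with CPM, RPKM and TPM that the authors computed. Counts were used for every test and for the normalised CPM (counts per 1000000 of the library total times the TMM factor over all 40 libraries), and the deposited TPM values only to rank levels between genes. The deposited CPM and RPKM (80 columns) were not used.

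Tests were made with edgeR 4.0.16 (quasi-likelihood, TMM, filterByExpr with a minimum count of 10 and a minimum total of 15) on R 4.3.3, over all genes that passed this filter, with Benjamini-Hochberg adjustment over all of them. A gene was called at an adjusted p under 0.05 and an absolute Log2FC over 0.5. Sex, stage and exercise were fitted with genotype as a covariate on the libraries compared, and the lines within each set of 8 libraries. Alternatives were relative log expression scaling, TMM without ribosomal and 7SL RNA counts, centring on the 3L median, DESeq2 1.42.0, no filter, genes with at least 1 CPM in every library, a stricter call (adjusted p under 0.01, absolute Log2FC over 1), presence at 5 CPM, each library left out in turn and a replicate block. The scripts were tested on simulated data. Tables and figures were made with Python 3.11.15, pandas 2.3.3, numpy 2.4.6 and matplotlib 3.10.9.

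The labels give larvae and nonexercised adults a lane for each replicate number, so these numbers mark a shared lane. Deviations of the replicates from their group means correlated across genotypes at −0.15 to 0.63 (larvae), 0.14 to 0.58 (nonexercised females) and 0.03 to 0.17 (nonexercised males), and at −0.70 to 0.52 and −0.08 to 0.56 in exercised females and males, whose numbers mark no lane. In no pair of replicates were more than 1.27% of the well-covered genes at identical counts, so none was taken as a repeat deposit of another.

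Named genes were, for each comparison of sex, stage and exercise, the 5 members with the largest difference in mean log2(CPM + 1) in each direction among those called without overlap of the libraries. To these were added the members of the 2 longest runs of neighbours per direction, the 5 highest by TPM, the 5 steadiest at a mean of at least 10 CPM, the 5 with the largest called interaction, the 5 called against WT with the largest Log2FC, and the 3 most like the leading male-high and female-high gene. No member was called against attP2 in all 3 lines or in 2 sets. The other line genes, the members of small presence classes and the genes of opposite direction were named after their values were seen. The members, lists and rules were chosen with earlier results of these data known. Counting error only is covered by the floor of 3 counts. Coordinates are those of the deposited table, and no genome sequence was used.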

Additional observations from a re-analysis of the deposited data

Results flagged for a closer look

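In 57 checks of a set's 8 libraries for a value far from the rest, 11 stood out. All lay in A31P exercised male replicate 2 or attP2 nonexercised male replicate 1. Apart from library-wide measures, the genes checked were picked for the largest sex difference in nonexercised adults or the largest interaction. The interaction genes came from a fit that includes A31P exercised male replicate 2. Genes with like levels share the same libraries, so the checks are not independent and no chance rate is set against them. The criterion was a gap between the highest or lowest library and its neighbour, relative to the set's range, over Dixon's critical value for 8 samples. The ratio of X to 3L counts in exercised males was highest in A31P replicate 2 (0.676). The same library stood above the other exercised males in CG43134 (49.5 CPM), CG11381 (18.8 CPM), CG32642 (9.33 CPM) and CG15571 (4.75 CPM), and it carries 3861 CPM of the 7 yolk and eggshell genes.

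Among nonexercised males attP2 replicate 1 stood below the others in the male-high members CG8565 (97.6 CPM), CG1394 (97.8 CPM), CG1324 (91.7 CPM), CG16782 (81.9 CPM) and CG12470 (90.4 CPM) and above them in the female-high member CG43134 (2.20 CPM). Its yolk and eggshell genes summed to 114 CPM, the highest of the nonexercised males. The part of other cells or animals in these values was not tested.

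The sex difference itself differed between exercised and nonexercised adults, by the interaction term, for 208 members upwards and 84 downwards. These are 18.7% and 7.55% of the members tested, near the 20.3% and 8.64% of all genes (3L 19.4% and 10.4%). The largest were CG11381 (6.48), CG32642 (6.31), CG42780 (5.96), CG15571 (5.01) and CG15570 (4.74). All but CG42780 lost their call without A31P and R820W exercised male replicate 2.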

How the results depend on the processing

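Over the counts and medians of the report, 609 of 727 repeats under other settings stayed close, 109 moved and 9 changed sign, and over the named genes 2472 stayed called in the same direction, 175 lost their call and CG15571 (interaction, −0.33 without the 2 doubtful libraries, a setting chosen after seeing the data) changed sign. The causes were not tested.

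Among genes with at least 1 CPM in every library the medians, for X, 3L and X minus 3L, were −0.37, −0.28 and −0.10 for sex in nonexercised adults, −0.51, −0.35 and −0.16 for sex in exercised adults, −0.45, −0.30 and −0.15 for larvae over females, and −0.010, −0.18 and 0.17 for larvae over males. This setting leaves out the genes near the floor in either group. With relative log expression scaling the X and 3L medians were 0.42 and 0.82, 0.64 and 1.09, 0.11 and 0.49, and −0.30 and −0.32. This scaling moved the median of all genes by 0.16, 0.15, 0.18 and −0.04. With no filter the 3L median was 0.82 for sex in exercised adults and 0.40 and −0.25 for larvae over females and males, with X minus 3L at −0.32, −0.46 and −0.010. Without A31P and R820W exercised male replicate 2 the X median of sex in exercised adults was 0.57.

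Leaving out each library in turn, medians for larvae over females were −0.10 to 0.057 (X), 0.30 to 0.45 (3L) and −0.43 to −0.38 (X minus 3L), and above 0 for X without R820W nonexercised female replicate 2. For larvae over males they were −0.27 to −0.20, −0.28 to −0.23 and −0.000102 to 0.059, and the X median of sex in exercised adults was 0.44 to 0.54. The interaction was called downwards for 76 to 135 members, 135 without A31P exercised male replicate 2, and for 152 without both doubtful libraries. Shares over all genes are not given for these repeats.

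At an adjusted p under 0.01 and an absolute Log2FC over 1 (edgeR), exercise was called for 22 members up and 60 down in females and 15 up and 6 down in males, larvae over males for 181 up, and the interaction for 57 up and 8 down. Shares over all genes are not given for this call, so its counts are not read as results about the members. At 5 CPM, members seen in males only fell to 0, in adults only to 2 (3L 3), and in males and larvae only to 11 (3L 25). On 3L larva-only genes fell to 4 and genes of all 5 sets to 464.

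Members called in at least 1 line against attP2 numbered, with DESeq2, 11 in larvae, 10 and 5 in nonexercised and exercised females, and 25 and 29 in the same sets of males. Shares over all genes are not given beside the counts of this paragraph, which show only how they move with the setting. With no filter they numbered 2 in larvae, 1 and 4 in nonexercised and exercised females, and 18 in nonexercised males. Against WT, DESeq2 called 104 in nonexercised females, 1 in exercised females and 9 in exercised males, and no filter gave 43 in nonexercised females. With a replicate block, which pairs libraries of a lane in nonexercised flies, the counts were 1 against attP2 and 78 against WT in nonexercised females. In exercised males, where numbers mark no lane, the block gave 13 and 1. It moved no other count by over 1.5 times, and 6 named calls were lost. With single libraries left out the counts against attP2 were 0 to 3 in larvae, 0 to 153 and 0 to 2 in nonexercised and exercised females, and 1 to 162 and 0 to 173 in the same sets of males. Against WT they were 0 to 277 in nonexercised females, 0 to 8 in nonexercised males and 0 to 177 in exercised males.

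With 2 pools per group the line counts carry the least certainty of all values given, and levels under 0.201 CPM lie within 3 counts of 0.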
